A study of Mus musculus with 18 samples.

Results

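The myelin structural protein genes examined here were Mbp, Mag, Mog, Mobp, Cnp, Mal, Omg, Opalin and Cldn11, 9 of the 18194 genes named by the annotation of the array. Their probe sets were all those that the annotation pairs with 1 single symbol of this list, 24 of 45101 probe sets. A probe set was tested if its mean signal reached 100 in at least 1 group, which left 21 of the 24 probe sets and 8 of the 9 genes. Neither probe set of Opalin passed, and Mog passed only through the 24 h controls, the group in which it was highest. The RNA came from neurosphere cultures, free-floating colonies of neural precursors, grown from C57BL/6 mouse embryos (E15.5) out of both ganglionic eminences, medial and lateral. The spheres were dissociated and plated as a monolayer in medium with serum and without EGF, and FGF2 was withdrawn later. Cultures were left untreated (control), or received 10 ng/ml BMP2, a bone morphogenetic protein, or 50 nM trichostatin A (TSA), an inhibitor of class I and II histone deacetylases, for 6 or 24 h. The sources used here differ on whether treatment began before or with the withdrawal of FGF2. Affymetrix mouse arrays measured 2 controls, 2 BMP2 and 2 TSA samples at 6 h, and 6 controls, 2 BMP2 and 4 TSA samples at 24 h. All groups share the same strain, tissue, age and medium.

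Myelin is the membrane that oligodendrocytes wrap around axons in the central nervous system. Its sheath is compacted by myelin basic protein (Mbp) and stabilised by Mobp, while Cnp sits in the channels of cytoplasm that remain, Mag lies next to the axon, Mog on the outer face, and claudin 11 (Cldn11) forms the tight junctions between the layers. Precursors of the ganglionic eminence can form oligodendrocytes, and BMP ligands are known to turn such precursors away from this fate toward astrocytes.

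The arrays of a group were not interchangeable. Of the 24 h controls, numbers 5 and 6 stood apart from numbers 1 to 4, and they shared with both 24 h BMP2 arrays a high signal of Xist, the X-inactivation RNA. On these 4 arrays 1 Xist probe set read 703 to 2086, against 18.4 to 75.5 on the other 14, and a brighter one read 2197 to 4467 against 325 to 1875. The last Xist probe set did not show this, with 23.4 to 97.5 against 66.8 to 375. The labels name no batches, so both sets of controls are given apart, and results at 24 h are also given with a term for the 4 high-Xist arrays. In a fit with this term, BMP2 at 24 h is in effect compared with controls 5 and 6, and TSA with controls 1 to 4. The labels do not state that arrays of a group came from separate cultures, so p-values measure the spread between these samples. In bulk RNA, fewer oligodendrocytes and less RNA per oligodendrocyte cannot be told apart. Microglia markers were too dim to test in 7 of 7 genes, with a summed signal of 35.9 to 75.8 over the 18 arrays.

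**Figure D1:**
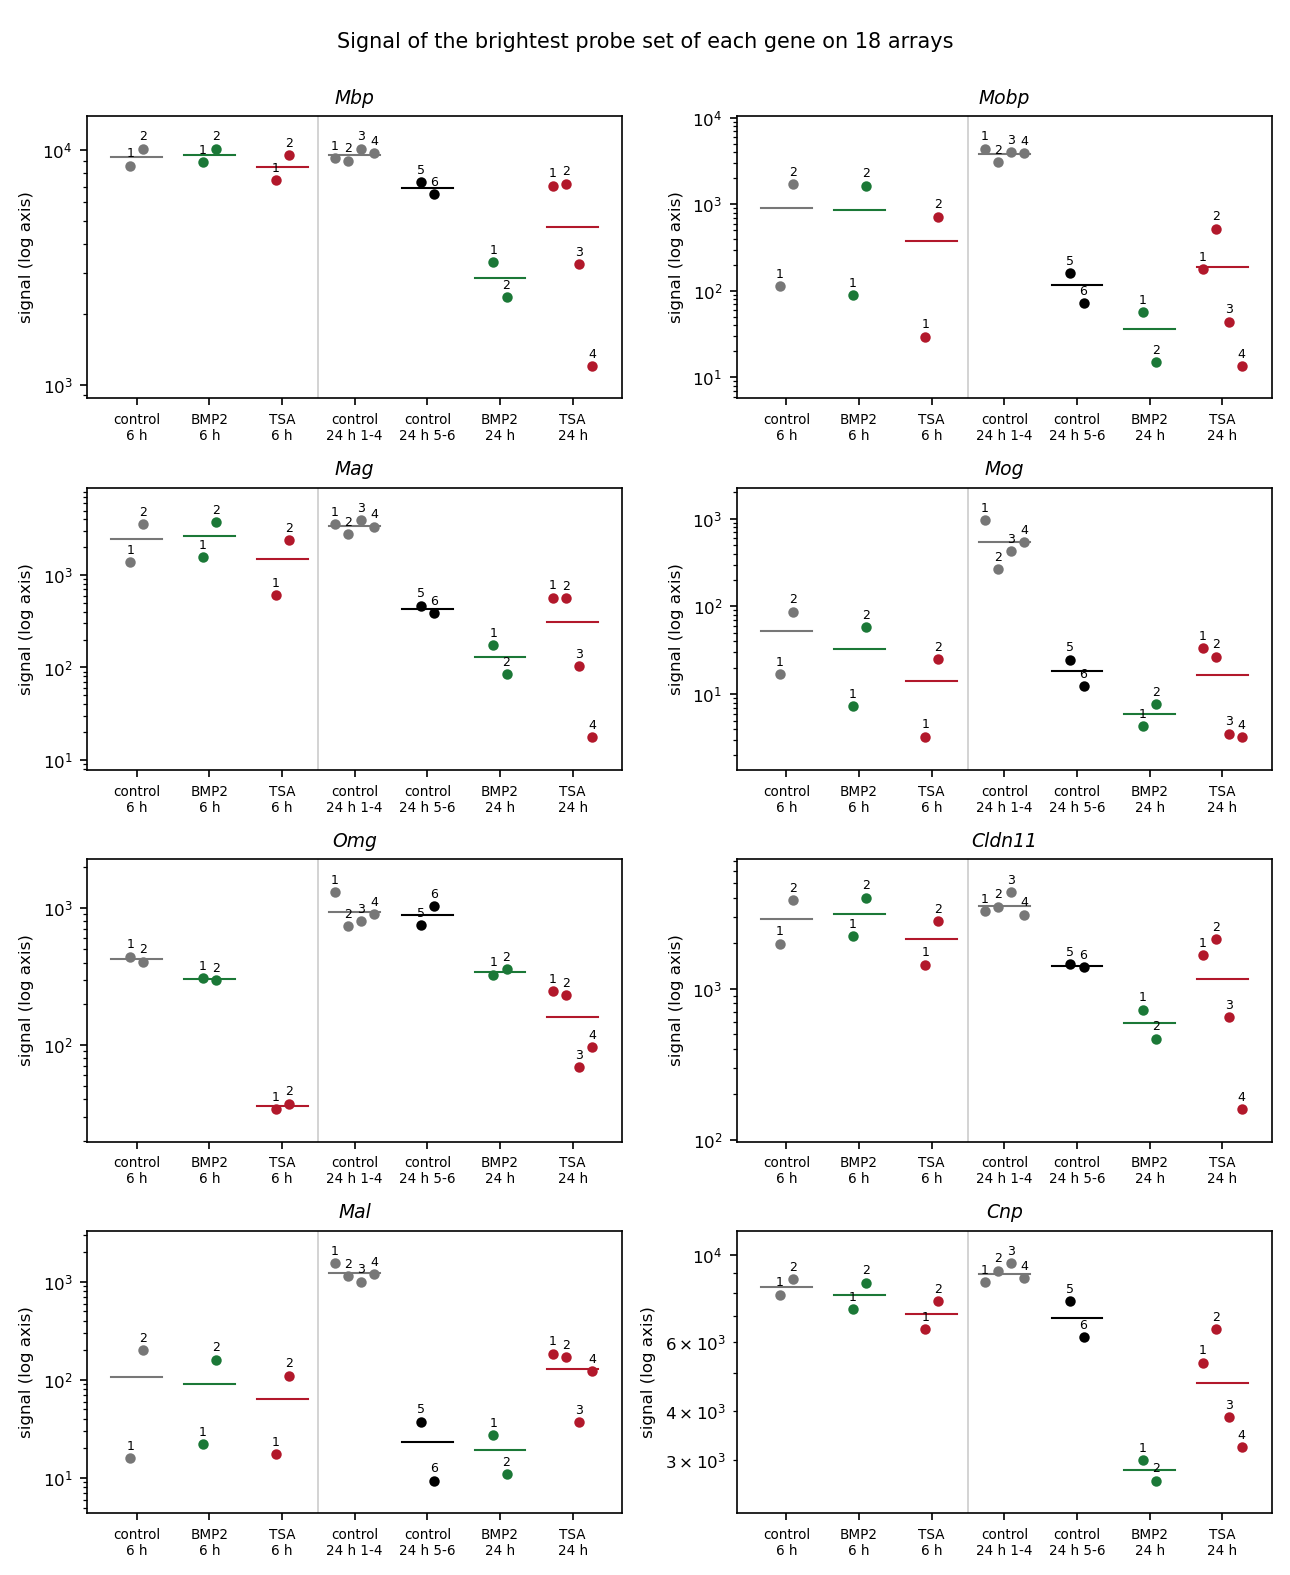
Signal of the brightest probe set of each of 8 genes (vertical log axis, arbitrary units after quantile normalization) on 18 arrays, in 6 groups with the 24 h controls 1 to 4 and 5 to 6 apart; numbers are replicate numbers and bars are arithmetic means. For Mobp, controls 1 to 4 read 3062 to 4411 and controls 5 and 6 read 159.6 and 72.8.

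Mbp was called lower after 24 h of either treatment against all 6 controls. Its brightest probe set read 8598 and 10176 in the 6 h controls, 8933 and 10176 after 6 h of BMP2, and 7445 and 9520 after 6 h of TSA. At 24 h the controls 1 to 4 read 9265, 9044, 10176 and 9750, and controls 5 and 6 read 7324 and 6497. The BMP2 arrays read 3337 and 2368, and the TSA arrays 7059, 7210, 3271 and 1203. Both BMP2 arrays lay below every control, whereas TSA arrays 1 and 2 lay within the range of the controls and arrays 3 and 4 far below it.

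Against all 6 controls, Mbp fell by 1.60 ± 0.46 (SE) on the log2 scale, after 32 was added to each signal, with BMP2 at 24 h (limma, adjusted p = 0.0253) and by 1.18 ± 0.36 with TSA (adjusted p = 0.0187). The term for the high-Xist arrays changed the BMP2 value to -1.29 ± 0.56 (adjusted p = 0.192) and the TSA value to -1.33 ± 0.39 (adjusted p = 0.0164). Without TSA array 3 the TSA call was lost at an adjusted p of 0.0505, and without either BMP2 array the BMP2 call was lost, with adjusted p of up to 0.225.

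Mbp had 8 probe sets, all tested, and they did not move alike. The 6 brightest were called lower at 24 h, with log2 differences of -1.60 to -3.19 for BMP2 and -1.18 to -2.20 for TSA. The largest of these differences belonged to the least bright of the 6, 1451961_a_at, which read 4886 to 7381 in controls 1 to 4, 2204 and 2430 in controls 5 and 6, 448 and 441 with BMP2, and 2526, 2415, 686 and 145 with TSA. Probe set 1425264_s_at read 204 to 545 in controls 1 to 4, 412 and 794 in controls 5 and 6 and 388 and 416 with BMP2, a log2 difference of -0.02 ± 0.48 (adjusted p = 0.985). The dimmest, 1425263_a_at, read 40.8 and 50.0 with BMP2 against 51.3 to 110.0 in the controls, a log2 difference of -0.51 ± 0.26 (adjusted p = 0.195). Which transcripts of the gene these probe sets read was not analysed here.

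**Figure D2:**
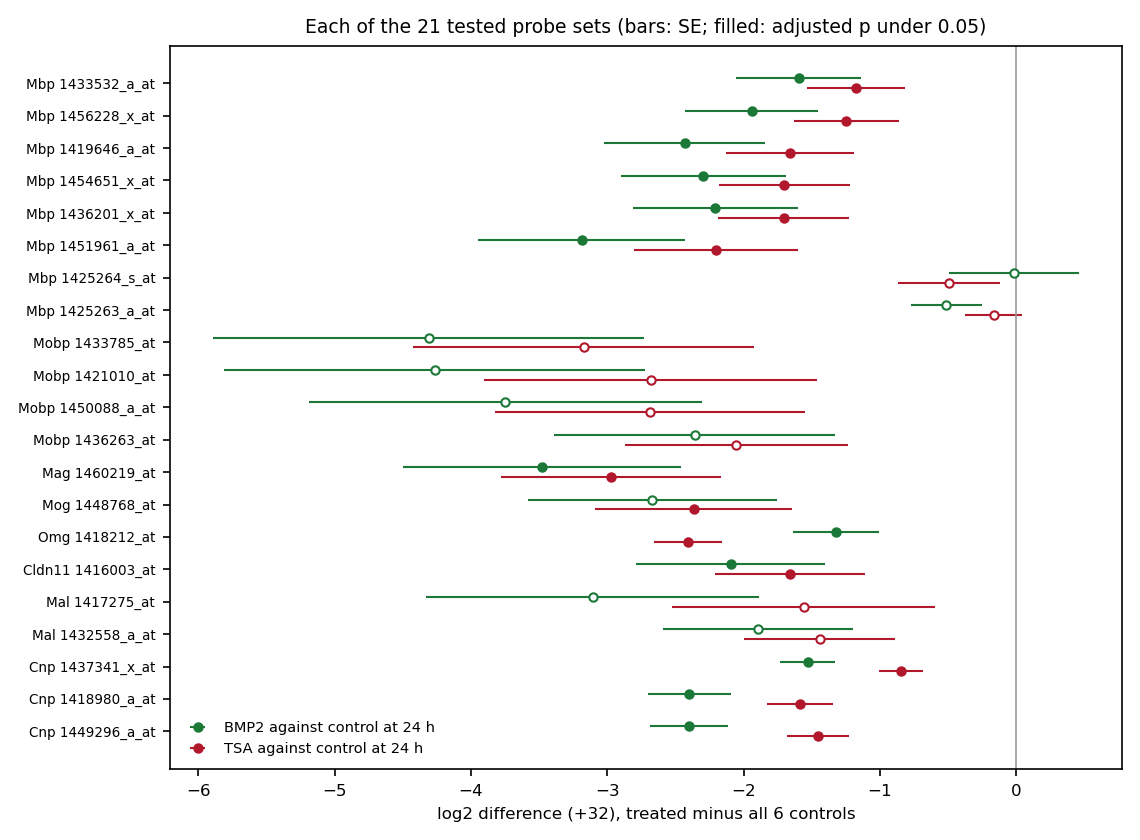
Log2 difference (horizontal axis, signal + 32, treated minus all 6 controls at 24 h) for each of the 21 tested probe sets with its SE; filled points passed an adjusted p of 0.05. All 3 Cnp probe sets are filled for both treatments, and the 4 Mobp and both Mal probe sets are open for both.

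Cnp, the cyclic nucleotide phosphodiesterase of the non-compact sheath and an early gene of the lineage, was called lower at 24 h with either treatment. Its brightest probe set read 7929 and 8668 in the 6 h controls, 7280 and 8509 with BMP2 and 6467 and 7639 with TSA. At 24 h controls 1 to 4 read 8526, 9123, 9520 and 8715 and controls 5 and 6 read 7622 and 6176. BMP2 gave 2996 and 2653, and TSA gave 5310, 6457, 3862 and 3230. The BMP2 arrays were below every TSA array, and 3 of 4 TSA arrays were below every control.

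With BMP2 at 24 h Cnp fell by 1.53 ± 0.20 on the log2 scale (limma, adjusted p = 7.21e-05), and it was the only member called under each choice of controls. The values were -1.66 ± 0.20 against controls 1 to 4 and -1.27 ± 0.25 against controls 5 and 6 (adjusted p = 0.00614). The term for the high-Xist arrays makes the same comparison with controls 5 and 6 under another estimate of the spread, at -1.27 ± 0.23 (adjusted p = 0.00165). With TSA Cnp fell by 0.85 ± 0.16 (adjusted p = 0.000726), and against controls 5 and 6 by 0.59 ± 0.22 (adjusted p = 0.0427). The other Cnp probe sets were called too, with -2.40 ± 0.31 and -2.40 ± 0.29 for BMP2 and -1.59 ± 0.24 and -1.46 ± 0.23 for TSA.

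Mobp, the oligodendrocytic basic protein of compact myelin, Mog, the outermost glycoprotein, and Mal, a proteolipid of membrane sorting, varied strongly between arrays of 1 group. Mobp read 113 and 1709 in the 6 h controls, 89.4 and 1644 with BMP2 at 6 h, and 29.7 and 723 with TSA at 6 h. At 24 h controls 1 to 4 read 4411, 3062, 4022 and 3936, but controls 5 and 6 read 159.6 and 72.8. Number 2 was above number 1 in all 3 groups at 6 h, and controls 1 to 4 lay far above controls 5 and 6.

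Mal read 15.9 and 201 in the 6 h controls, 22.0 and 161 with BMP2 and 17.4 and 111 with TSA. In the 24 h controls 1 to 4 it read 1540, 1145, 1003 and 1198, and in controls 5 and 6 it read 37.6 and 9.38. Mog stayed under 100 on every 6 h array, with 16.8 and 87.3 in the controls, 7.32 and 58.4 with BMP2 and 3.27 and 24.9 with TSA. In the 24 h controls it read 962, 264, 429 and 545 on numbers 1 to 4 and 24.8 and 12.4 on numbers 5 and 6. Mog and Mal on controls 5 and 6 were thus no higher than on the 6 h arrays of number 2.

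**Figure D3:**
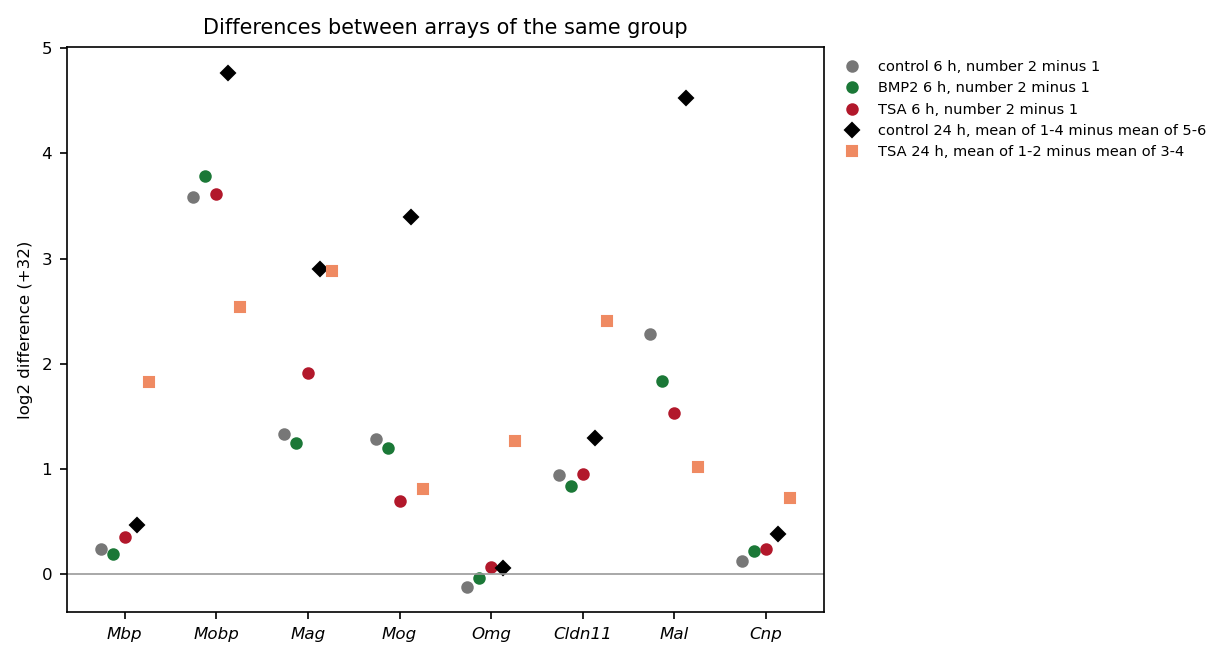
Log2 differences (vertical axis, signal + 32) between arrays of the same group for the 8 tested genes: number 2 minus number 1 in the 3 groups at 6 h, 24 h controls 1 to 4 minus 5 and 6, and 24 h TSA arrays 1 and 2 minus 3 and 4. Mobp, at 4.77 between the controls, is highest, and Omg, at 0.06, lies near 0.

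Over the tested genes, controls 5 and 6 read below every one of controls 1 to 4 in 7 of 8, all but Omg, where 19.4% of all tested probe sets did so. The mean of controls 1 to 4 was above that of controls 5 and 6 by 4.77 for Mobp, 4.53 for Mal, 3.40 for Mog, 2.90 for Mag, 1.29 for Cldn11, 0.47 for Mbp, 0.38 for Cnp and 0.06 for Omg on the log2 scale. At 6 h number 2 was above number 1 in the control, BMP2 and TSA groups in 7 of 8 genes, again all but Omg, where 25.3% of probe sets did so. With 32 added to each signal, it was over 2 times number 1 in all 3 groups in Mobp, Mal and Mag, which 0.149% of probe sets were. These are differences between untreated or equally treated arrays, and no test was made of them. Mobp differed most in each of these 4 sets of arrays. Mag, Mog, Mobp and Mal differed over 4 times on that scale between the sets of 24 h controls, as 0.448% of probe sets did.

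The upstream sequences of these genes are shown because Mobp, Mog and Mal moved together over the 18 arrays, with Pearson correlations of 0.889 to 0.932, while Cnp did not follow them as closely, at 0.532 to 0.765. The points share arrays and groups, so these values are a description. Each line gives the 250 bases before the RefSeq start on build GRCm38.p6. Mobp lies at chr9:120149492-120149741 on the plus strand, Mog at chr17:37023399-37023648 on the minus strand, Mal at chr2:127656696-127656945 on the minus strand and Cnp at chr11:100574689-100574938 on the plus strand. Capitals mark ACAAAG on either strand, a core that Sox factors such as Sox10 are known to bind.
Mobp: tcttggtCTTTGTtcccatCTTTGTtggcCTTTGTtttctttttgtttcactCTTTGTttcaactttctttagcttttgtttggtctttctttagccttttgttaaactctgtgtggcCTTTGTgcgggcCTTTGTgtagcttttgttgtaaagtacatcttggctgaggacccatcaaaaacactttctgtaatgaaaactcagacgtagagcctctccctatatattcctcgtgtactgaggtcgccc
Mog: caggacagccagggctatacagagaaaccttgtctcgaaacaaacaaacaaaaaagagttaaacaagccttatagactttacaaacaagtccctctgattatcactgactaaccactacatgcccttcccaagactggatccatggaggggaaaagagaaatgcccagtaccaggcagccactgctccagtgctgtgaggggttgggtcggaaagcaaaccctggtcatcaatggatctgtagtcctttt
Mal: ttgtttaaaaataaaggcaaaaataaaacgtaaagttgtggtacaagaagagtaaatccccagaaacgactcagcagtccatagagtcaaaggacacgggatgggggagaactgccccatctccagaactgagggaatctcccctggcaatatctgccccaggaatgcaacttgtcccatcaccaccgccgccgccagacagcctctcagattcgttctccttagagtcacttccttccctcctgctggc
Cnp: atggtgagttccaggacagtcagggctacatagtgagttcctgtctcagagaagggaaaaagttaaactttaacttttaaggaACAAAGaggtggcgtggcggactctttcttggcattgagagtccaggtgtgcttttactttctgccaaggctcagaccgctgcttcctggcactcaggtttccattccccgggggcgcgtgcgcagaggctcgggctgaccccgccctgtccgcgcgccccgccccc
The Mobp window held 6 matches, Cnp 1, and Mog and Mal none, while 16.5% of 32851 such windows held at least 1. Only 1 of the 32851 windows, that of Mobp, held 6 or more. CANNTG, the E-box letters of basic helix-loop-helix factors such as Olig2, was present once in Cnp and in none of the others, against 66.2% of all windows. GGGCGG, the GC box, was present 2 times in Cnp and in none of the others, against 32.7%. Both strands were searched, and no match overlapped another in these 4 windows. No binding was measured, so these matches describe the letters alone.

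With 24 h of BMP2, Mobp read 56.9 and 14.9, Mal 27.5 and 10.9, and Mog 4.29 and 7.66. These are low readings, and every one was below all of controls 1 to 4. Against controls 5 and 6, Mal overlapped and Mobp and Mog were below. Against all 6 controls the log2 differences were -4.31 ± 1.58 for Mobp (adjusted p = 0.0742), -3.11 ± 1.22 for Mal (adjusted p = 0.0942) and -2.67 ± 0.91 for Mog (adjusted p = 0.0572), none of which passed.

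Against controls 1 to 4 alone the differences of Mobp, Mal and Mog were -5.90 ± 1.25, -4.62 ± 0.65 and -3.80 ± 0.48, all called. With the term for the high-Xist arrays, the values were -1.13 ± 1.39, -0.09 ± 0.73 and -0.40 ± 0.54, with adjusted p of 0.745, 0.977 and 0.771. Mobp, Mal and Mog were called once control 5 or control 6 was left out, with adjusted p down to 0.0209, 0.0149 and 0.00941. Mog passed the filter only through the 24 h controls, so its falls from them are no independent support.

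With 24 h of TSA, Mobp read 179.5, 521.5, 44.1 and 13.6, Mal 185, 171, 37.4 and 123, and Mog 33.3, 26.9, 3.55 and 3.21. All 4 arrays of each gene were below controls 1 to 4, and in each of Mobp, Mal and Mog some were above controls 5 and 6. Against all 6 controls Mog fell by 2.37 ± 0.72 (adjusted p = 0.0184), and Mobp (-3.17 ± 1.25, adjusted p = 0.0592) and Mal (-1.56 ± 0.97, adjusted p = 0.225) did not pass. TSA arrays carry the same numbers as controls 1 to 4, and arrays of equal number had residual correlations of 0.448 to 0.594. For Mobp, number 2 was the lowest of these controls but the highest TSA array. For Mal and Mog, number 1 was the highest in both. A fit was made with a block for each replicate number of a time and the high-Xist arrays as 1 block. In this paired fit the differences were -4.76 ± 0.48 for Mobp (adjusted p = 1.15e-05), -3.07 ± 0.22 for Mal (adjusted p = 1.24e-06) and -3.50 ± 0.24 for Mog (adjusted p = 7.88e-07). Mog was tested only through the 24 h controls, so its falls with TSA are no independent support either. Against controls 5 and 6 alone the values were 0.00 ± 1.33 for Mobp, 1.46 ± 0.69 for Mal (adjusted p = 0.109) and -0.10 ± 0.42 for Mog. Among single arrays, the Mog call was lost without TSA array 4 (adjusted p = 0.0505), Mobp was called without control 5, control 6 or TSA array 2 (adjusted p down to 0.0168), and Mal without control 6 (adjusted p = 0.0438).

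Mag, the adhesion glycoprotein of the innermost membrane that faces the axon, was clearly present at 6 h and lower with either treatment at 24 h. It read 1383 and 3536 in the 6 h controls, 1565 and 3744 with BMP2 and 608 and 2378 with TSA. At 24 h the controls 1 to 4 read 3545, 2761, 3926 and 3346 and controls 5 and 6 read 467 and 384. BMP2 gave 175 and 85.1, and TSA gave 570, 566, 103 and 17.5. The BMP2 arrays were below every control, and TSA arrays 1 and 2 lay above controls 5 and 6.

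Mag differed by -3.48 ± 1.02 with BMP2 (adjusted p = 0.0286) and by -2.98 ± 0.81 with TSA (adjusted p = 0.0094) on the log2 scale. With the term for the high-Xist arrays the BMP2 value was -1.55 ± 0.95 (adjusted p = 0.406) and the TSA value -3.94 ± 0.67 (adjusted p = 0.000401). The BMP2 call was lost without control 3, control 4 or either BMP2 array, with adjusted p of up to 0.22.

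Cldn11 read 1980 and 3836 in the 6 h controls, 2224 and 3992 with BMP2 and 1440 and 2807 with TSA. At 24 h it read 3241, 3488, 4370 and 3079 in controls 1 to 4, 1447 and 1384 in controls 5 and 6, 727 and 467 with BMP2, and 1662, 2132, 648 and 159.8 with TSA. The BMP2 arrays were again below every control, and TSA arrays 1 and 2 lay between the sets of controls. It fell by 2.10 ± 0.69 with BMP2, just inside the threshold (adjusted p = 0.0499), and by 1.66 ± 0.55 with TSA (adjusted p = 0.0276). The BMP2 call was lost in 13 of the 18 fits that left out 1 array, with adjusted p of up to 0.298, and with the term for the high-Xist arrays (-1.23 ± 0.78, adjusted p = 0.429). The TSA call was lost without control 3, TSA array 3 or TSA array 4, with adjusted p of up to 0.105. It held with the term for the high-Xist arrays, which sets TSA against controls 1 to 4, and was lost against controls 5 and 6 alone.

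Omg, the oligodendrocyte myelin glycoprotein, a membrane-anchored protein also made by neurons, followed a course of its own. It read 443 and 405 in the 6 h controls and 306 and 297 with BMP2, but 34.0 and 37.3 after 6 h of TSA. At 24 h the controls read 1315, 738, 800.0, 904, 749 and 1028 in the order of their numbers, with controls 5 and 6 inside the range of controls 1 to 4. BMP2 gave 326 and 359.7 and TSA gave 249, 232, 68.6 and 96.1. TSA arrays were below BMP2 arrays, and these below controls, with no overlap at either time.

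Among the 8 tested genes Omg was the only one called after 6 h of TSA, where it fell by 2.75 ± 0.39 (adjusted p = 0.000208), in a comparison in which 10.4% of all tested probe sets were called lower. All 8 values lay below 0 there, with a median of -0.61, against 0.01 over all tested probe sets. The lack of a call does not show that the other genes stayed the same. At 24 h Omg fell by 2.41 ± 0.25 with TSA (adjusted p = 3.57e-06), and the difference between the effects of TSA at 24 h and at 6 h was 0.34 ± 0.46 (95% interval -0.63 to 1.31). With BMP2 Omg fell by 1.32 ± 0.31 at 24 h (adjusted p = 0.00871). The term for the high-Xist arrays left that value at -1.28 ± 0.39 with an adjusted p of 0.0525, and the call was lost without either BMP2 array (adjusted p of up to 0.111). At 6 h the BMP2 value for Omg was -0.45 ± 0.39 (adjusted p = 1). In TSA against BMP2, Omg was lower at 6 h, at -2.30 ± 0.39 (adjusted p = 0.000538), the only member called where 11.5% of probe sets were called lower.

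Opalin, a membrane protein of mature oligodendrocytes, stayed below the limit for testing in every group. Its brighter probe set read 115, 120.2, 81.1 and 71.2 in controls 1 to 4, 92.7 and 118 in controls 5 and 6, 84.0 and 62.0 with BMP2 and 34.5 to 50.0 with TSA at 24 h. At 6 h it read 33.8 to 62.2 over the 6 arrays. The dimmer probe set read 2.58 to 12.8 over all 18 arrays.

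**Figure D4:**
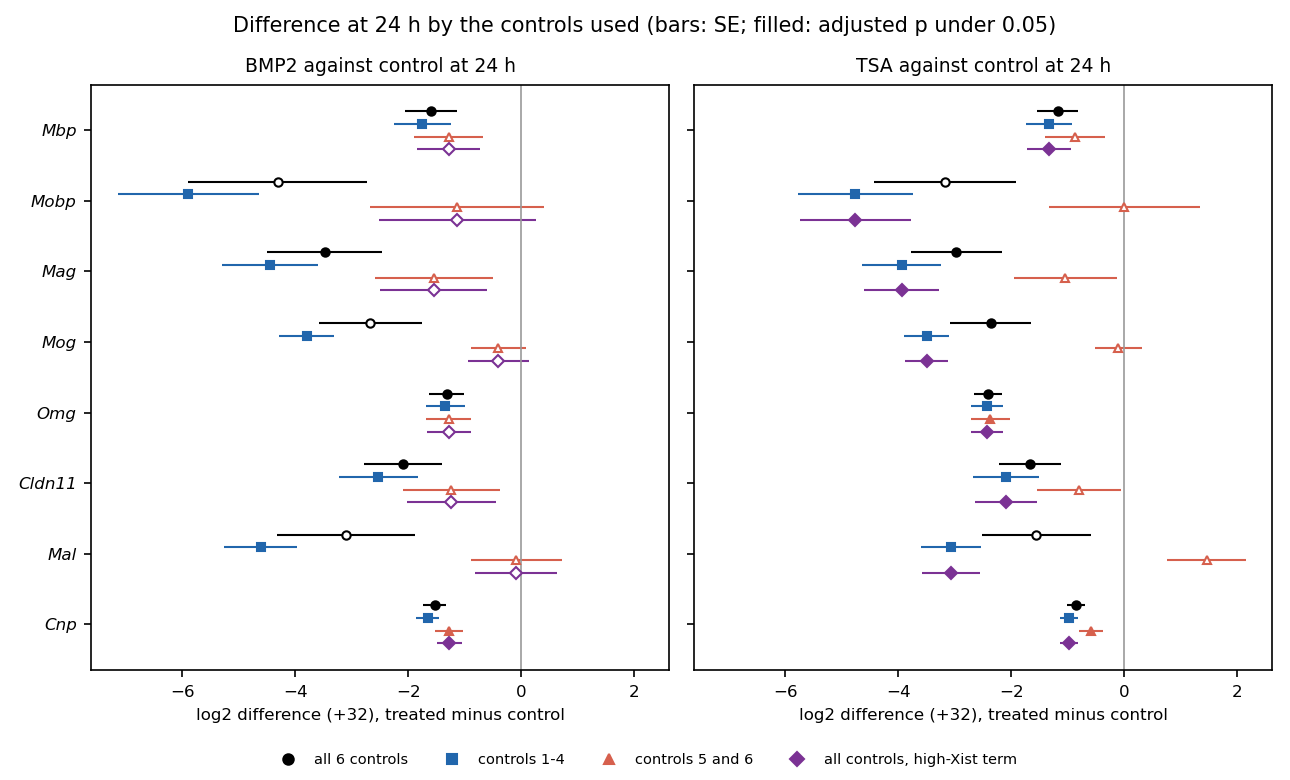
Log2 difference at 24 h (horizontal axis, signal + 32, treated minus control; left BMP2, right TSA) with its SE for 8 genes, by the controls used; filled points passed an adjusted p of 0.05. Cnp is filled in all 4 fits of both panels, and Mobp, Mag, Mog and Mal lie nearer to 0 against controls 5 and 6 than against controls 1 to 4.

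Counted together, 0 of 8 genes were called after 6 h of BMP2 in either direction (limma; 0 also at an unadjusted p under 0.05), where 0.494% of all tested probe sets were called lower and 0.977% higher. The spread leaves room for differences there, with 95% intervals of -1.16 to 1.21 for Mbp, -0.60 to 0.45 for Cnp and -4.26 to 3.96 for Mobp on the log2 scale. After 24 h of BMP2, 5 of 8 were called lower (Mbp, Mag, Cnp, Omg and Cldn11) and 0 higher, against 8.11% of probe sets lower and 8.42% higher. The median log2 difference was -2.38 for the 8 genes and 0.00 over all tested probe sets. With the term for the high-Xist arrays 1 of 8 was called lower, Cnp, against 4.39%, and the median was -1.25. The paired fit called 2, Cnp and Omg, against 8.62%. In it the high-Xist arrays are 1 block, so no BMP2 array at 24 h is paired with a control. Against controls 1 to 4 alone 8 of 8 were called lower, where 17.8% of probe sets were, and against controls 5 and 6 alone 1 of 8, where 4.06% were. Mog is among the 8 only because it is high in the 24 h controls. Both BMP2 arrays read below both controls 5 and 6 in 7 of 8 genes, all but Mal, where 28.0% of probe sets did, and below all 6 controls in the same 7, where 14.7% did.

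After 24 h of TSA, 6 of 8 were called lower (Mbp, Mag, Mog, Cnp, Omg and Cldn11) and 0 higher, against 18.8% of probe sets lower and 16.6% higher. The median difference was -2.01, against -0.02 over all tested probe sets. Against controls 1 to 4 alone all 8 tested genes were called lower, where 17.6% of probe sets were. With the term for the high-Xist arrays 8 were called too, where 17.5% were, and in the paired fit 8, where 24.4% were. Both of these fits also set TSA against controls 1 to 4 only, with the same median of -2.75, so they are no separate support. Against controls 5 and 6 alone 2 of 8, Cnp and Omg, were called lower, where 22.5% of probe sets were. Every TSA array read below every one of controls 1 to 4 in 8 of 8 genes, where 14.4% of probe sets did, but below all 6 controls only in Omg, where 10.7% did. Mog, tested only because of these controls, had to be high in them.

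Pair by pair, each of the 4 TSA arrays at 24 h was below the control of its own number in all 8 tested genes. For Mbp the 4 log2 differences were -0.39, -0.33, -1.63 and -2.99, and for Mag they were -2.57, -2.22, -4.88 and -6.09. For Cldn11 they were -0.95, -0.70, -2.69 and -4.02. Numbers 3 and 4 lay further below their controls than numbers 1 and 2 in these 3 genes, in Mobp, in Omg, in Cnp and in Mal, whereas in Mog number 1 stood at -3.93 and number 3 at -3.70. At 6 h the pairs were closer to 0 for all genes but Omg, with values of -1.23 and -1.21 for Mobp and 0.04 and -0.71 for Mal.

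**Figure D5:**
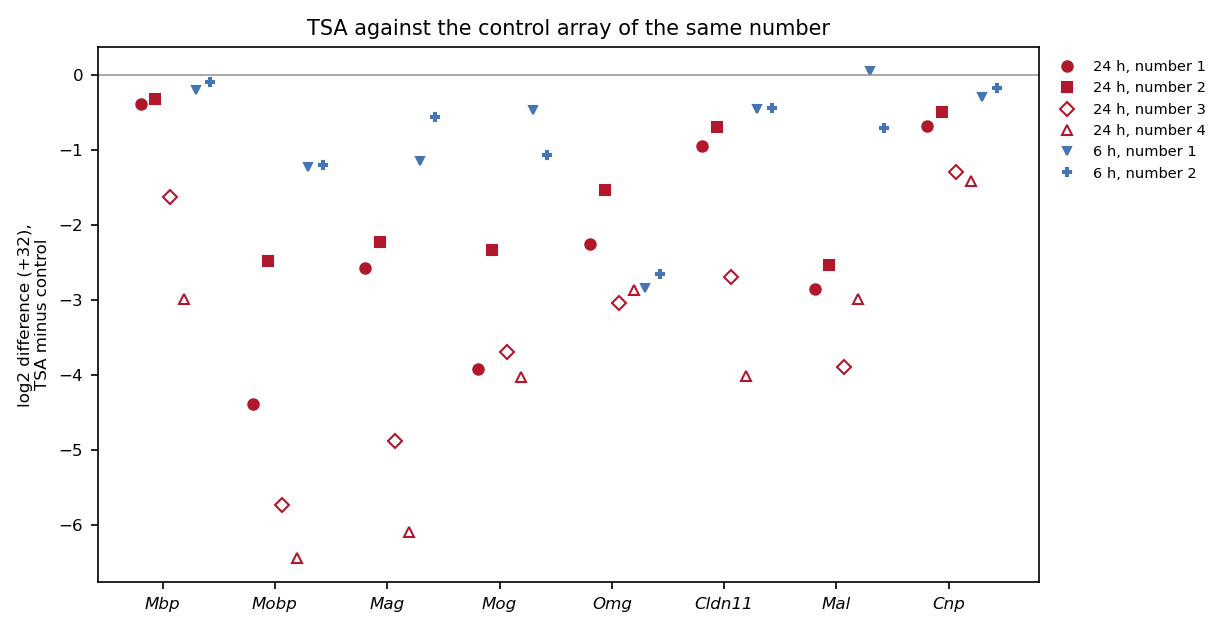
Log2 difference (vertical axis, signal + 32) between a TSA array and the control of the same number for 8 genes, 4 pairs at 24 h and 2 at 6 h. All 24 h pairs lie below 0, from -0.33 in Mbp to -6.44 in Mobp, and at 6 h Omg lies lowest at -2.85 and -2.66.

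The direct comparison of the treatments at 24 h depended on the arrays used. In it, Cnp was higher with TSA than with BMP2 by 0.68 ± 0.21 (adjusted p = 0.0201; 18.5% of probe sets were called higher) and Omg was lower, at -1.09 ± 0.33 (adjusted p = 0.018; 19.5% were called lower). Both calls were lost without either BMP2 array (adjusted p of up to 0.145 and 0.114), and with the term for the high-Xist arrays, at 0.30 ± 0.28 for Cnp and -1.15 ± 0.48 for Omg. That term turned Mog from 0.30 ± 0.97 to -3.09 ± 0.66 (adjusted p = 0.00622) and Mal from 1.55 ± 1.30 to -2.98 ± 0.89 (adjusted p = 0.039), where 6.41% of probe sets were called lower. In such a fit BMP2 is compared with controls 5 and 6 and TSA with controls 1 to 4, 2 sets of arrays in which Mog and Mal started from very different signals. Without TSA array 4 Mbp was called higher with TSA, by 0.96 (adjusted p = 0.017).

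Whether the effects differed between 24 h and 6 h was tested as the difference of their effects. For TSA 0 of 8 genes passed (limma; 0 at an unadjusted p under 0.05), where 5.53% of probe sets were called lower and 4.32% higher. In the paired fit 5 of 8 passed with a lower value at 24 h, Mag (-3.09 ± 0.85), Mog (-2.73 ± 0.41), Mobp (-3.55 ± 0.83), Cnp (-0.74 ± 0.22) and Mal (-2.74 ± 0.39), where 14.6% of probe sets did. The 6 h controls read only 16.8 and 87.3 for Mog and 15.9 and 201 for Mal, which leaves little room for a fall at 6 h. Mog was also tested only through the 24 h controls. For BMP2 0 of 8 passed on the brightest probe sets (3 at an unadjusted p under 0.05), Cnp with -1.45 ± 0.32 lying next to the threshold (adjusted p = 0.0512). Both other Cnp probe sets passed, at -2.26 ± 0.48 (adjusted p = 0.0467) and -2.16 ± 0.46 (adjusted p = 0.0431), where 0.154% of all probe sets were called lower and 0.473% higher. Neither passed with the term for the high-Xist arrays, at -1.83 ± 0.47 (adjusted p = 0.15) and -1.77 ± 0.45 (adjusted p = 0.14), nor against controls 5 and 6 alone (adjusted p = 0.222 and 0.133). Without control 6, TSA array 2 or TSA array 4 at 24 h the brightest Cnp probe set passed too (adjusted p down to 0.0164).

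In the untreated cultures no member was called between 6 and 24 h against all 6 controls (limma; 1 of 8 at an unadjusted p under 0.05, Omg at 1.04 ± 0.31, adjusted p = 0.0705), where 1.53% of probe sets were called higher and 2.86% lower. With the term for the high-Xist arrays Mog (2.79 ± 0.47, adjusted p = 0.00346) and Mal (3.55 ± 0.63, adjusted p = 0.00479) were higher at 24 h, where 3.38% of probe sets were. Mobp was at 2.94 ± 1.20 (adjusted p = 0.139). Mbp (0.03 ± 0.48) and Cnp (0.11 ± 0.20) were near 0 in that fit. Mog and the dimmer Mal probe set were tested only because they are high in the 24 h controls, so that these rises of theirs are no independent support. Against controls 5 and 6 alone the value was below 0 in 7 of 8 genes, all but Omg (1.00 ± 0.40, adjusted p = 0.105), with a median of -0.78. None of the 8 passed there (limma; 2 at an unadjusted p under 0.05, Omg and Mag, the latter at -2.30 ± 1.05 with an adjusted p of 0.149), where 9.69% of probe sets were called lower and 7.48% higher, but the Cnp probe set 1449296_a_at was lower by -1.09 ± 0.30 (adjusted p = 0.0266). For Omg the call was made without TSA array 1 or TSA array 3, with adjusted p down to 0.0379, although neither array is in this comparison and both enter through the shared spread.

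Across the 18 arrays the 8 genes followed one another to different degrees. Mbp, Mag, Cnp and Cldn11 correlated with each other at 0.909 to 0.971. Mobp lay between these genes and the pair of Mog and Mal, with 0.858 to Mag and 0.899 to Mog. Omg was the least like the rest, from 0.352 with Mbp to 0.636 with Mog. Against the mean of the standardised profiles of the 8 genes, the member nearest to it was Mobp (0.946) and the farthest was Omg (0.607).

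Of all other tested genes the 5 nearest to that mean were Adamts4 (0.943), Map6d1 (0.934), Plekha1 (0.931), Ugt8a (0.931) and Elovl7 (0.930) over the same 18 arrays. Ugt8a makes galactosylceramide, a main lipid of myelin, Adamts4 is a secreted protease and Elovl7 elongates fatty acids. Adamts4 read 831 to 1489 in controls 1 to 4, 268 and 361 in controls 5 and 6, 133 and 152 with BMP2 and 58.4 to 300.1 with TSA at 24 h. Adamts4 was picked for its correlation over these same arrays, so its difference between the sets of controls, in the direction of Mag and Mobp, is no separate support. At 6 h it read 597 and 1335 in controls and 163 and 303 with TSA.

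A list of 32 other genes of myelin and of oligodendrocyte maturation had 23 tested. With BMP2 at 24 h 8.11% of all tested probe sets were called lower and 8.42% higher. Of the 23 genes 15 were called lower and 1 higher, with a median of -2.10. Those with the smallest adjusted p were Gal3st1, which makes sulfatide (-2.83 ± 0.29), Gpr17, a receptor of early oligodendrocytes (-4.72 ± 0.57), and Sirt2, a deacetylase found in myelin (-1.56 ± 0.20), and the gene that rose was Cd9, a tetraspanin also made by astrocytes (0.88 ± 0.11). With the term for the high-Xist arrays 12 of 23 were called lower and 1 higher. With TSA at 24 h 15 were called lower and 1 higher, where 18.8% and 16.6% of all tested probe sets were. The median of the 23 genes was -1.57, and with the term 17 were called lower and 0 higher. Gal3st1 (-2.73 ± 0.23), the receptor gene Plxnb3 (-3.10 ± 0.30) and Gpr17 (-4.46 ± 0.45) had the smallest adjusted p, and Aspa, the aspartoacylase, rose by 0.67 ± 0.24 (adjusted p = 0.0438; 0.157 with the term). At 6 h of TSA 5 of 23 were called lower, where 10.4% of all tested probe sets were. They were led by Qk, an RNA-binding regulator of myelin transcripts (-0.84 ± 0.06), and at 6 h of BMP2 0 were called (limma). The median of the 23 genes at 6 h of TSA was -0.95, against 0.01 over all tested probe sets. In the paired fit 15 of 23 were called lower at 6 h of TSA, a count without a share of all probe sets beside it.

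The sets of 24 h controls were also compared over other lists. The median of controls 1 to 4 minus controls 5 and 6 was 0.80 for the 29 myelin and maturation genes on the array, of which 9 were at least 2-fold higher in controls 1 to 4. It was 0.12 for 10 oligodendrocyte transcription factors and -0.19 for 8 precursor genes, beside the 0.06 for Omg to 4.77 for Mobp given above for the members. No share or median over all probe sets is given beside these values, so they cannot be called particular to a list. The summed signal of 8 astrocyte markers was 24856 to 31655 in controls 1 to 4 and 21829 to 24121 in controls 5 and 6, and that of 10 neuron markers was 1380 to 2313 and 2427 to 3493. The part of these differences in the spread of the members was not tested.

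Of all tested probe sets, 8.11% were called lower with BMP2 at 24 h, 18.8% with TSA at 24 h and 10.4% with TSA at 6 h. Of 9 tested transcription factors of the lineage, 4 were called lower in each of these 3 comparisons. With BMP2 at 24 h these were Olig2 (-1.08 ± 0.12), Sox10 (-2.59 ± 0.42), Nkx2-2 (-1.64 ± 0.33) and Myrf, the regulator that switches on myelin genes (-3.54 ± 0.56). With TSA at 24 h they were Sox10 (-2.40 ± 0.33), Nkx2-2 (-2.70 ± 0.26), Myrf (-2.80 ± 0.44) and Sox8 (-1.81 ± 0.59). These 8 calls held with the term for the high-Xist arrays, the Sox8 value with TSA being -0.85 (adjusted p = 0.0238), and the Sox8 value with BMP2, which did not pass, went from 0.98 to -0.93 (adjusted p = 0.168). After 6 h of TSA, when Omg was the only member called, they were Nkx2-2 (-3.31 ± 0.41), Myrf (-2.02 ± 0.68), Sox10 (-1.48 ± 0.51) and Olig2 (-0.52 ± 0.15).

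At 24 h, 8.11% of all tested probe sets were called lower and 8.42% higher with BMP2, and 18.8% lower and 16.6% higher with TSA. Of 8 precursor genes, 3 were called lower with BMP2 at 24 h and 4 with TSA. Pdgfra, the receptor of precursors for PDGF, was at -2.92 ± 0.19 and -0.99 ± 0.15. Without a replicate block Pdgfra was also the 1 gene of this list called at 6 h of BMP2 (-0.98 ± 0.23, adjusted p = 0.0454). Of 12 tested genes of cholesterol synthesis, the sterol that myelin is rich in, 0 were called with BMP2 at 24 h (limma; lowest adjusted p 0.0735) and 10 were called lower with TSA, among them Idi1 (-1.89 ± 0.17) and Cyp51 (-1.49 ± 0.14). Of 6 genes of Schwann cell myelin, 2 were tested and 0 were called at 24 h with either treatment. Astrocyte markers, 5 of 8 of them called lower with BMP2 and 3 of 8 with TSA at 24 h, had a summed signal of 16339 to 19203 with BMP2, 22500 to 31117 with TSA and 21829 to 31655 in the 24 h controls. In the fit with the high-Xist term 3 of 8 were called lower with BMP2. Neuron markers summed to 3251 to 3926, 1073 to 2251 and 1380 to 3493 in these groups, and 3 of 10 were called higher with BMP2, but 0 higher and 1 lower (Rbfox3) with that term. The endothelial markers, of which 1 of 5 was tested, Kdr, summed to 314 to 358, 154 to 221 and 116 to 155, and Kdr rose with BMP2 by 1.36 ± 0.19. The part of these markers in the falls of the myelin genes was not tested.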

How the data were processed

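RNA of 18 samples of mouse neurosphere cultures was hybridised to Affymetrix arrays. As deposited, each probe set has 1 intensity, on a linear scale. The notes of the submitters name MAS5 (version not given) and the methods of the study name dChip with quantile normalization, and which of them made the values could not be settled here. Array medians as deposited were 35.4 to 41.6. The number of arrays limits the precision.

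Quantile normalization was applied to all 18 arrays before taking log2 of the signal plus 32, which understates differences of dim probe sets. Any probe set whose mean reached 100 in 1 group was kept, 19439 in total, without the 64 array control probe sets. They entered 1 model of the 6 groups in limma 3.58.1 (R 4.3.3; eBayes with trend). P-values were adjusted by the Benjamini-Hochberg method within each of 9 comparisons, with a threshold of 0.05. A gene is represented by its brightest tested probe set. Symbols come from the annotation of the platform, in which 34958 probe sets have 1 gene, 932 several and 9211 none. Upstream sequences are those of RefSeq, taken for 7 of the 9 genes, with member windows on chromosome 18 left out.

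Genes named are the members, at most 4 genes of each other list (the smallest adjusted p, and any against the direction of the list), and the 5 genes nearest to the members. The members and lists were chosen with earlier results of these data known. Equal numbers of TSA and control arrays 1 to 4 at 24 h had residual correlations of 0.448 to 0.594, 4 of 4 highest at the own number, so these numbers pair arrays. BMP2 arrays gave -0.13 to 0.003 with the controls of their own numbers. The fits were tested on simulated data. Alternatives were other scalings, added values, filters, variance models and controls, terms for the high-Xist arrays and replicate numbers, all probe sets of a gene averaged, the criteria of the study, and leaving out each array.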

Additional observations from a re-analysis of the deposited data

Results flagged for a closer look

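Both dimmer probe sets of Cnp had a BMP2 effect that differed between 24 and 6 h. The difference of the effects was -2.264 on the log2 scale for 1418980_a_at (limma, adjusted p = 0.0467) and -2.165 for 1449296_a_at (adjusted p = 0.0431). Neither passed with a term for the 4 high-Xist arrays (adjusted p = 0.15 and 0.14) or against controls 5 and 6 alone (adjusted p = 0.222 and 0.133). With BMP2 the first read 3506 and 4597 at 6 h and 640.3 and 563 at 24 h, and the second read 3134 and 4392 at 6 h and 483 and 481 at 24 h. In the 42 sets of 4 or 6 arrays examined for a single array far from the others (21 probe sets in the 24 h controls and the 24 h TSA arrays), no gap passed Dixon's critical value, where chance passes about 1 in 20. The rule looks at a single extreme array, so arrays that are low together, such as controls 5 and 6, can hide each other from it.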

How the results depend on the processing

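Counts of member genes called depended on the 24 h controls used and on the replicate block. Where no share of all probe sets stands beside a count here or above, the count cannot be read against all probe sets. The replicate block alone has no such share. For BMP2 at 24 h the count was 5 with all controls (8.11% of all tested probe sets were called lower). It was 8 with controls 1 to 4 alone (17.8%), 1 with controls 5 and 6 alone (4.06%) and 1 with the high-Xist term (4.39%). It was 8 with the replicate block, 2 with the replicate block within the high-Xist split (8.62%) and 8 by the criteria of the study. For TSA at 24 h it was 6 (18.8%), and 2 with controls 5 and 6 alone (22.5%). For TSA against BMP2 at 24 h it was 2, and 1 with only the groups compared, 4 with the replicate block, 4 with the block within the split and 1 by the criteria of the study. There, Mog turned to -3.09 with the term and with the block within the split, Mal to -2.98 in both, and Mobp to -3.63 with the block within the split. For the controls between 6 and 24 h it was 0, and 1 with median scaling, 2 with controls 1 to 4 alone, 2 with the term, 3 with either block and 2 by the criteria of the study. For the BMP2 effect at 24 h minus 6 h it was 0, and 1 with deposited signals, 1 with median scaling, 1 with 64 added, 1 with all probe sets of a gene averaged, 2 with only the groups compared, 4 with controls 1 to 4 alone, 7 with the replicate block and 1 with the block within the split. For the TSA effect at 24 h minus 6 h it was 0, and 1 with controls 1 to 4 alone, 1 with the term and 5 with either block. The criteria of the study give no value for differences of effects. Leaving out 1 array at a time gave 1 to 8 genes for BMP2 at 24 h, 4 to 8 for TSA at 24 h, 0 to 3 for TSA against BMP2 at 24 h, 0 to 1 for the controls between times and 0 to 1 for the BMP2 difference of effects. Of 2351 combinations of a gene result and a setting, 2140 kept direction and side of the threshold, 58 lost a call, 80 gained one, 5 reversed and 68 changed sign without a call. At 24 h the BMP2 arrays did not pair with the controls of their own numbers, so counts with the block alone describe no pairing there. No value is given here for a pairing with controls 5 and 6. The block within the split holds the high-Xist arrays as 1 block and pairs no BMP2 array with a control at 24 h. At 6 h same-numbered arrays correlated at 0.567 to 0.713 in residuals, over 2 numbers only, and the block within the split changed the counts called lower there from 5 to 15 of 23 other myelin genes and from 3 to 6 of 8 precursor genes with TSA, and from 1 to 3 of 8 precursor genes with BMP2. Causes were not tested. Signals of Mog, Mal and Mobp on many arrays lie near the dim end, where the added 32 sets the size of a difference.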
